A study of Mus musculus with 22 samples.

Results

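The immunoglobulin heavy chains described here were rearranged from IGHV2-3, IGHV2-5 or IGHV2-9-1, which are variable (V) genes of the mouse IGHV2 family. They were found by the V gene named for each bulk heavy-chain sequence and for each productive heavy chain of a single cell. The genes were chosen by their share of sequences in the bulk libraries and of cells in the single-cell library from ovalbumin (OVA) immunization, so these shares are given as a description without a test. In the bulk libraries 523 of 8520 sequences qualified, of which 334 used IGHV2-3, 29 used IGHV2-5 and 160 used IGHV2-9-1. Among single cells 244 of 5503 qualified, 238 of them in the OVA library.

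The study sorted germinal center B cells from the spleens of male C57BL/6 mice, 8 weeks old by the labels (the design text gives a range that ends there). Every mouse had received 100 µg of antigen intraperitoneally with 50% alum and 1 µg LPS. The bulk heavy chains came from OVA-binding germinal center B cells, in 4 libraries each of p at day 13, n at day 13, p at day 7 and n at day 7. What the letters p and n stand for, and whether the numbers 1 to 4 mark animals, is not in the labels, so p-values below measure only the spread between these libraries, which may be technical. The single cells came from 1 library of total germinal center B cells after OVA (OVA 1, whose day is not labelled) and from 2 libraries of NP-binding germinal center B cells at day 13 after NP(23)-KLH, a hapten on a carrier protein (NP 1 and NP 2). All cells were gated as live, B220+, Fas high and GL-7 high.

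A heavy chain is made by joining a V, a D and a J gene. The joint forms the third complementarity-determining region (CDR3), which lies at the centre of the antigen-binding site, while CDR1 and CDR2 are encoded by the V gene itself. IGHV2, long known as the Q52 family, lies in the part of the locus nearest to the D genes. In germinal centers point mutations are introduced into the rearranged V region, most often at short motifs called hotspots, and cells can switch class from IgM to IgG, IgA or IgE. IGHJ1 is the first of the J genes, the one nearest to the D genes.

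The members lie on chromosome 12 and are annotated as V segments in RefSeq's GRCm38.p6 (mm10). Ighv2-3 spans chr12:113611184-113611476, Ighv2-5 spans chr12:113685482-113685774 and Ighv2-9-1 spans chr12:113769857-113770142. Over 285 aligned germline bases IGHV2-3 and IGHV2-9-1 were 93.7% identical, IGHV2-3 and IGHV2-5 88.1%, and IGHV2-5 and IGHV2-9-1 87.7%. IGHV2-2, a family gene outside the group, was 97.2% identical to IGHV2-5. The germline bases 76 to 171 follow as the deposited bulk alignments give them, 5′ to 3′, because they hold CDR1 and CDR2 (in capitals) and framework 2 between them; of these, CDR1 had the most substitutions per base.
IGHV2-3: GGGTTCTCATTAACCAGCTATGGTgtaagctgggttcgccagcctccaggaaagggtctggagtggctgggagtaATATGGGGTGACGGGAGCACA
IGHV2-5: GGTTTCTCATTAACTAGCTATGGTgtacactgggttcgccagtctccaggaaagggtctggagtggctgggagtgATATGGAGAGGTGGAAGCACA
IGHV2-9-1: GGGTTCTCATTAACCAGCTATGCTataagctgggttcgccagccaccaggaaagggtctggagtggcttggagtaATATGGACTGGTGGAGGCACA

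The junctions that carry the J pairing and light-chain results run from the codon of the V cysteine to the J tryptophan codon, and capitals mark the stretch at the end that is equal to the germline J gene. The first pair are IGHJ1 junctions that recurred in 4 and in 3 bulk libraries. The other junctions are from OVA 1, with IGHV2-5 first, and are named again beside their cells.
IGHV2-3 with IGHJ1: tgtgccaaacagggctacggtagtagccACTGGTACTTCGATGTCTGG
IGHV2-9-1 with IGHJ1: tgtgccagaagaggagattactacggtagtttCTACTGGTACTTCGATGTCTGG
IGHV2-5 with IGHJ4: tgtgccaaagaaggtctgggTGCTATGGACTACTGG
IGHV2-5 with IGHJ2: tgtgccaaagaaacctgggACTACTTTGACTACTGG
IGHV2-5 with IGHJ3: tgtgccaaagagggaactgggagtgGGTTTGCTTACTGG
IGHV2-5 with IGHJ3: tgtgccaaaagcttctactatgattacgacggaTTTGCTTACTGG
IGHV2-9-1 with IGHJ2: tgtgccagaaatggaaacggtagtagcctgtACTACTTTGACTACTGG
IGHV2-3 with IGHJ2: tgtgccaaactcggttcttttcctcACTGG

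The bulk libraries held 285 to 1000 sequences each, with no read count per sequence. A rearrangement is a distinct set of V gene, J gene and junction bases within a library, and there were 179 to 611 per library. Some rearrangements recurred between libraries. Library p 2 of day 13 shared 165 of its 271 rearrangements with p 2 of day 7, including 21 of its 23 from the members, n 1 of day 7 shared 15 to 32 with each day 13 library, and p 4 of day 7 shared 6 to 30 with each. Library p 2 of day 7 also shared 25 with p 4 of day 13. The p and n libraries of one number shared 4 to 18 rearrangements at day 13 and 38 to 48 at day 7, against a median of 2 for other pairs of a day. Across all libraries 43 of 318 member rearrangements (13.5%) were found at both days, against 391 of 4413 (8.86%) from other V genes. The cause of the sharing was not tested. Several results are given with and without the shared rearrangements, while values of single libraries include them. Of the single cells, OVA 1 shared 5 barcodes with NP 1 and 5 with NP 2, and NP 1 shared 1 with NP 2. No shared barcode had the same rearrangement in both libraries.

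Use of the members differed by gene and by library. IGHV2-3 made up 6.40%, 5.54%, 2.75% and 1.57% of rearrangements in the p libraries of day 13, and 2.87%, 1.68%, 2.78% and 1.88% in the n libraries of day 13. At day 7 it made up 4.42%, 5.65%, 9.33% and 7.60% in p libraries, and 3.32%, 2.07%, 4.10% and 2.38% in n libraries. The p and n values overlapped at day 13 and did not overlap at day 7, where IGHV2-3 averaged 6.75% ± 2.16 in p and 2.97% ± 0.922 in n libraries (SD, n = 4 each) and ranked 2nd of 94 V genes in p.

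IGHV2-9-1 was less used than IGHV2-3 in most libraries. It made up 3.45%, 2.95%, 2.75% and 2.76% of rearrangements in p libraries of day 13, and 2.23%, 2.23%, 0.463% and 0.940% in n libraries of day 13. At day 7 the shares were 2.21%, 3.76%, 3.44% and 3.08% in p libraries, and 1.77%, 1.24%, 0.820% and 1.06% in n libraries. At either day the lowest p library lay above the highest n library. Because the genes were chosen with these shares known, no test is attached to this separation or to that of IGHV2-3 at day 7. How many other V genes were separated by letter is not given here, so neither separation is shown to be particular to the members.

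IGHV2-5 was rare in the bulk libraries, with at most 5 rearrangements in any of them. It had 0 rearrangements in 5 of the 16 libraries, where 3 rearrangements would have made up 0.794% to 1.68%. Its mean share was 0.236% ± 0.280 in p libraries and 0.942% ± 0.680 in n libraries of day 13 (SD, n = 4 each). At day 7 it was 0.154% ± 0.108 in p and 0.175% ± 0.120 in n libraries. The mean of the n libraries of day 13 was the highest, and the 4 groups overlapped.

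**Figure D1:**
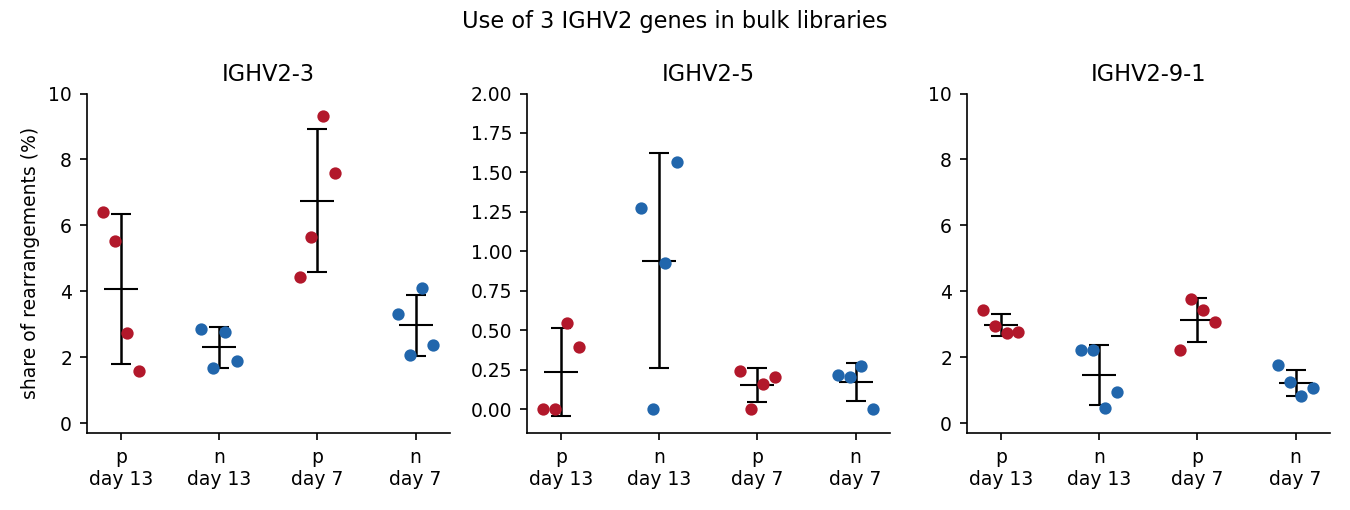
Share of distinct rearrangements (percent, vertical axis) that used IGHV2-3, IGHV2-5 or IGHV2-9-1 in bulk libraries of OVA-binding germinal center B cells; each point is a library, the horizontal bar the mean and the whiskers 1 SD (n = 4), and the IGHV2-5 panel has its own, smaller scale. IGHV2-3 reached 9.33% in a p library of day 7, while IGHV2-5 did not exceed 1.57%.

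Across the 16 libraries, the V gene whose share followed IGHV2-3 most closely was IGHV1-42 (Pearson's r = 0.76), then IGHV2-9-1 (0.64) and IGHV1-76 (0.56), of 46 candidates with a mean share of at least 0.5%. For IGHV2-9-1 the closest were IGHV1-66 (0.84), IGHV1-42 (0.71) and IGHV2-3 (0.64). For IGHV2-5 they were IGHV1-82 (0.81), IGHV1-74 (0.62) and IGHV1-54 (0.62). The IGHV2-5 coefficients rest on at most 5 rearrangements per library, with 0 in 5 of the 16. Values are shares of a common total and some libraries share rearrangements, so the coefficients are given as a description.

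By cells, IGHV2-5 was the most used member in OVA 1 but not in the NP libraries. IGHV2-5 was the heavy chain of 171 of 2015 OVA 1 cells (8.49%, exact Clopper-Pearson 95% interval 7.31 to 9.79), IGHV2-9-1 of 42 (2.08%, 1.51 to 2.81) and IGHV2-3 of 25 (1.24%, 0.804 to 1.83). These intervals cover counting error only. In NP 1 each member was found in 1 of 1947 cells. In NP 2 IGHV2-9-1 was found in 3 of 1541 cells, while IGHV2-3 and IGHV2-5 were found in 0, which allows a share of up to 0.195%. The limit given for a count of 0 is 3 counts of the total, here and below. OVA 1 is 1 library with its own gate, so antigen, gate and animal cannot be told apart.

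Counting cells gave weight to a few large clones. With each distinct rearrangement counted once, IGHV2-5 made up 48 of 1142 in OVA 1 (4.20%, 3.12 to 5.53). With each lineage counted once it made up 15 of 643 (2.33%, 1.31 to 3.82), close to the 14 of IGHV2-3 (2.18%, 1.2 to 3.63). A lineage groups cells of one library by V gene, J gene and CDR3 length, and by junctions linked through pairs that differ at 15% of bases or fewer.

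Member rearrangements used IGHJ1 more often than those of other V genes did, a difference that passed the test at day 7. IGHJ1 was used by 55.0%, 47.8%, 63.6% and 16.7% of member rearrangements in p libraries of day 13, and by 50.0%, 42.9%, 22.2% and 50.0% in n libraries of day 13. At day 7 the shares were 39.3%, 45.7%, 45.6% and 45.3% in p libraries, and 62.5%, 47.1%, 26.3% and 38.5% in n libraries. Among other V genes of the same libraries, IGHJ1 stood at 15.6% to 23.8% at day 13 and 14.2% to 23.0% at day 7. All 8 libraries of day 7 and 7 of 8 of day 13 had the higher share among the members, the exception being p 4 of day 13.

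At day 7 the mean IGHJ1 share was 43.8% ± 10.2 for the members and 18.6% ± 3.4 for other V genes (SD, n = 8), a difference of 25.2 percentage points (two-sided exact sign-flip permutation test, p = 0.00781, the smallest it can give, adjusted p = 0.0365 over 14 tests). At day 13 the means were 43.5% ± 16.1 and 18.7% ± 3.29, a difference of 24.8 points that missed the 0.05 threshold after adjustment (exact permutation p = 0.0234, adjusted p = 0.0820).

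IGHJ2 was used by 12.9% ± 3.66 of member rearrangements at day 7, against 29.9% ± 3.57 for other V genes, and was lower in 8 of 8 libraries (difference -17.0 points, exact permutation p = 0.00781, adjusted p = 0.0365). At day 13 its difference was -10.1 points, lower in 6 of 8 (adjusted p = 0.304, exact permutation). IGHJ3 was used by 8.30% ± 7.13 of member rearrangements at day 13, against 26.1% ± 4.78 for other V genes, and was lower in 8 of 8 (difference -17.8 points, exact permutation p = 0.00781, adjusted p = 0.0365). At day 7 the IGHJ3 difference was -4.17 points (adjusted p = 0.410), and IGHJ4 differed by 3.06 points at day 13 (adjusted p = 0.555) and -4.0 at day 7 (adjusted p = 0.304), all by exact permutation.

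These 3 calls rest on the smallest p-value that 8 libraries can reach. They were lost, with the direction kept, when any 1 library of the day was left out (exact permutation, adjusted p from 0.0547 to 0.0729). Fewer libraries raise the smallest p-value that the test can give, so this loss does not show dependence on a library. The calls were also lost, with the direction kept, without rearrangements found at both days. They were lost as well when the p and n libraries of a number, which share rearrangements, counted as 1 value (replicate block, exact permutation, adjusted p = 0.219 each), where 4 values per day cannot pass. Without rearrangements found at both days IGHJ1 still differed by 23.4 points at day 7 and 17.5 at day 13.

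The pairing was carried by IGHV2-3 and IGHV2-9-1. With the libraries pooled, IGHJ1 was used by 115 of 243 IGHV2-3 rearrangements (47.3%, interval 40.9 to 53.8) and 53 of 122 IGHV2-9-1 rearrangements (43.4%, 34.5 to 52.7), which ranked 1st and 2nd of 57 V genes with at least 20. A rearrangement found in several libraries counted in each of them, and these intervals treat such repeats as independent. IGHV2-3 exceeded the other V genes of its library in 15 of 16 libraries and IGHV2-9-1 in 13 of 16. IGHV2-5 had 5 of 19 with IGHJ1 (26.3%) and used IGHJ4 most, in 9 of 19 (47.4%). IGHV2-2, the near relative of IGHV2-5, had IGHJ1 in 11 of 70 (15.7%) and IGHJ3 in 33 (47.1%).

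**Figure D2:**
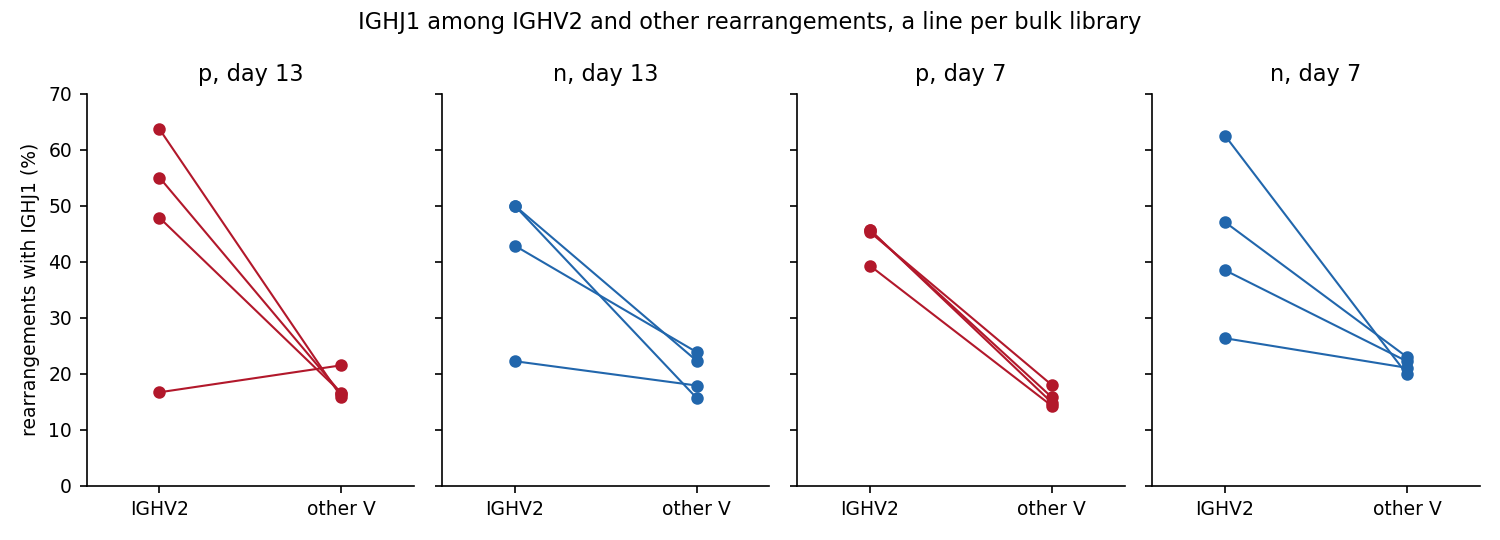
Share of rearrangements with IGHJ1 (percent, vertical axis) among IGHV2-3, IGHV2-5 and IGHV2-9-1 rearrangements (left in each panel) and all other V genes (right), with a line for each bulk library. The share was higher among the members in all libraries but p 4 of day 13, where it was 16.7% against 21.5%.

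In OVA 1 IGHJ1 was less frequent among member cells than in other cells, at 8 of 238 (3.36%, 1.46 to 6.52) against 291 of 1777 (16.4%, 14.7 to 18.2). It was found in 4 of 25 IGHV2-3 cells (16%, 4.54 to 36.1) and 4 of 42 IGHV2-9-1 cells (9.52%, 2.66 to 22.6). It was found in 0 of 171 IGHV2-5 cells, which allows a share of up to 1.75%. By lineage IGHJ1 made up 2 of 14 in IGHV2-3, 1 of 8 in IGHV2-9-1 and 0 of 15 in IGHV2-5. The gate, the assay and the animals differ between OVA 1 and the bulk libraries and cannot be told apart.

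No difference in CDR3 length passed the test. The mean over bulk libraries was 37.6 ± 2.17 bases for the members and 36.1 ± 0.591 for other V genes at day 13, and 37.5 ± 1.18 against 37.0 ± 0.799 at day 7 (SD, n = 8; exact permutation, adjusted p = 0.237 and 0.410). Between days the member difference was 0.120 bases (exact permutation p = 0.917) and between p and n it was 0.180 bases (p = 0.880, also by exact permutation). Within the group, distinct rearrangements ran from 24 to 51 bases in IGHV2-3 (median 36), 30 to 48 in IGHV2-5 (median 39) and 24 to 51 in IGHV2-9-1 (median 39).

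Member rearrangements carried few V substitutions, and p libraries of day 7 carried the fewest. The mean number per rearrangement was 2.25, 1.11, 2.18 and 1.17 in p libraries of day 13, and 1.90, 1.86, 1.56 and 1.14 in n libraries of day 13. At day 7 it was 0.991, 1.09, 0.95 and 0.958 in p libraries, and 1.60, 1.44, 1.34 and 1.50 in n libraries. Each p library of day 13 was above each p library of day 7, while the n libraries of the 2 days overlapped. Other V genes were likewise lowest in p libraries of day 7, with 0.815 to 1.11, against 1.41 to 1.57 in n libraries of that day. PCR and sequencing errors are counted with mutations and cannot be told apart from them.

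Over both letters the day 13 libraries were higher by 0.411 substitutions (two-sided exact permutation test, p = 0.0490, adjusted p = 0.147 over 6 tests), which did not pass. In p libraries the means were 1.68 ± 0.624 at day 13 and 0.998 ± 0.0651 at day 7 (exact permutation p = 0.0286, the smallest that 4 against 4 allows). The p libraries were separated narrowly, at 1.11 in p 2 of day 13 against 1.09 in p 2 of day 7. These libraries shared 21 of the 23 member rearrangements of the former, so they are not independent values. In n libraries the means were 1.61 ± 0.349 and 1.47 ± 0.110 (exact permutation p = 0.457). The change between days was not shown to differ between the letters (difference 0.537, exact permutation p = 0.160, adjusted p = 0.239 over 3 tests). Library n 4 of day 13, with 1.14, decided the pooled call: without it the difference was 0.489 (exact permutation, adjusted p = 0.00980). It was 0.120 without IGHV2-3 (exact permutation, adjusted p = 0.776) and 0.579 without rearrangements found at both days (exact permutation, adjusted p = 0.180). Between letters, p minus n was -0.206 in both days together (exact permutation p = 0.289, adjusted p = 0.579), -0.474 at day 7 (p = 0.0286, exact permutation) and 0.0629 at day 13 (p = 0.943, exact permutation).

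Against other V genes of the same libraries, the members averaged 1.65 ± 0.469 substitutions at day 13 and other V genes 2.32 ± 0.439 (SD, n = 8). The members were lower in 6 of 8 libraries, by 0.672 on average, and the difference did not pass after adjustment (exact sign-flip permutation p = 0.0312, adjusted p = 0.0875). At day 7 the averages were 1.23 ± 0.267 and 1.22 ± 0.298 (exact permutation, adjusted p = 0.719). Substitutions were counted on the whole aligned V segment, and 473 of 512 in-frame member sequences (92.4%) were read from its first base.

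The substitutions were denser in CDR1 and CDR2 than in the V segment as a whole. Positions are counted from 1 at the first base of framework 1. A substitution was counted once for each distinct rearrangement that had it, so a recurring one counted several times. This gave 314 in IGHV2-3, 143 in IGHV2-9-1 and 24 in IGHV2-5, of 168, 102 and 21 different kinds. CDR1 and CDR2, which take 15.8% of V bases together, held 30.9%, 29.4% and 45.8% of these counts, in that order. CDR1 was the densest region in each gene, with 66 substitutions on 24 bases in IGHV2-3, 28 in IGHV2-9-1 and 8 in IGHV2-5. CDR2 was less dense than framework 2 in IGHV2-3 (31 on 21 bases against 78 on 51) and in IGHV2-9-1 (14 against 37), and denser in IGHV2-5 (3 against 2). Mutation hotspots, here the C of AAC, AGC, TAC and TGC and the G of GCA, GCT, GTA and GTT, held 51.6%, 51.7% and 37.5% of substitutions on 13.3%, 12.6% and 14.4% of bases, in the same order of genes. Replacements made up 76.8% in IGHV2-3, 72.7% in IGHV2-9-1 and 95.8% in IGHV2-5.

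The most widespread substitution of IGHV2-3 was in an AGC of CDR1 that all members share. This AGC follows ATTAACC or ATTAACT in the germline stretches above. In IGHV2-3 G92A was found in 10 libraries and 17 of 199 distinct rearrangements, and G92C in 7 libraries. G104A near the start of framework 2, G148A near its end and G167A in CDR2 were each found in 6 libraries. IGHV2-9-1 had G148A in 6 libraries, G97A and G92A in 5 each, and G167A and G276T in 4 each. IGHV2-5 had G92A and G98A in 2 libraries each, and also G284A and G286A in 2 each and A60G in 1. G284A changes the codon of the conserved V cysteine.

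No substitution was in over 50% of a member's sequences, as an unlisted allele would be. Position 92 was mutated in 10 of 66 member rearrangements of p libraries at day 13 (15.2%), and in 6 of 50 of n libraries at day 13 (12%). At day 7 it was mutated in 17 of 195 in p (8.72%) and 7 of 73 in n libraries (9.59%). It was found in 3 of 4 libraries of either letter at day 13 and in 4 of 4 of either letter at day 7.

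**Figure D3:**
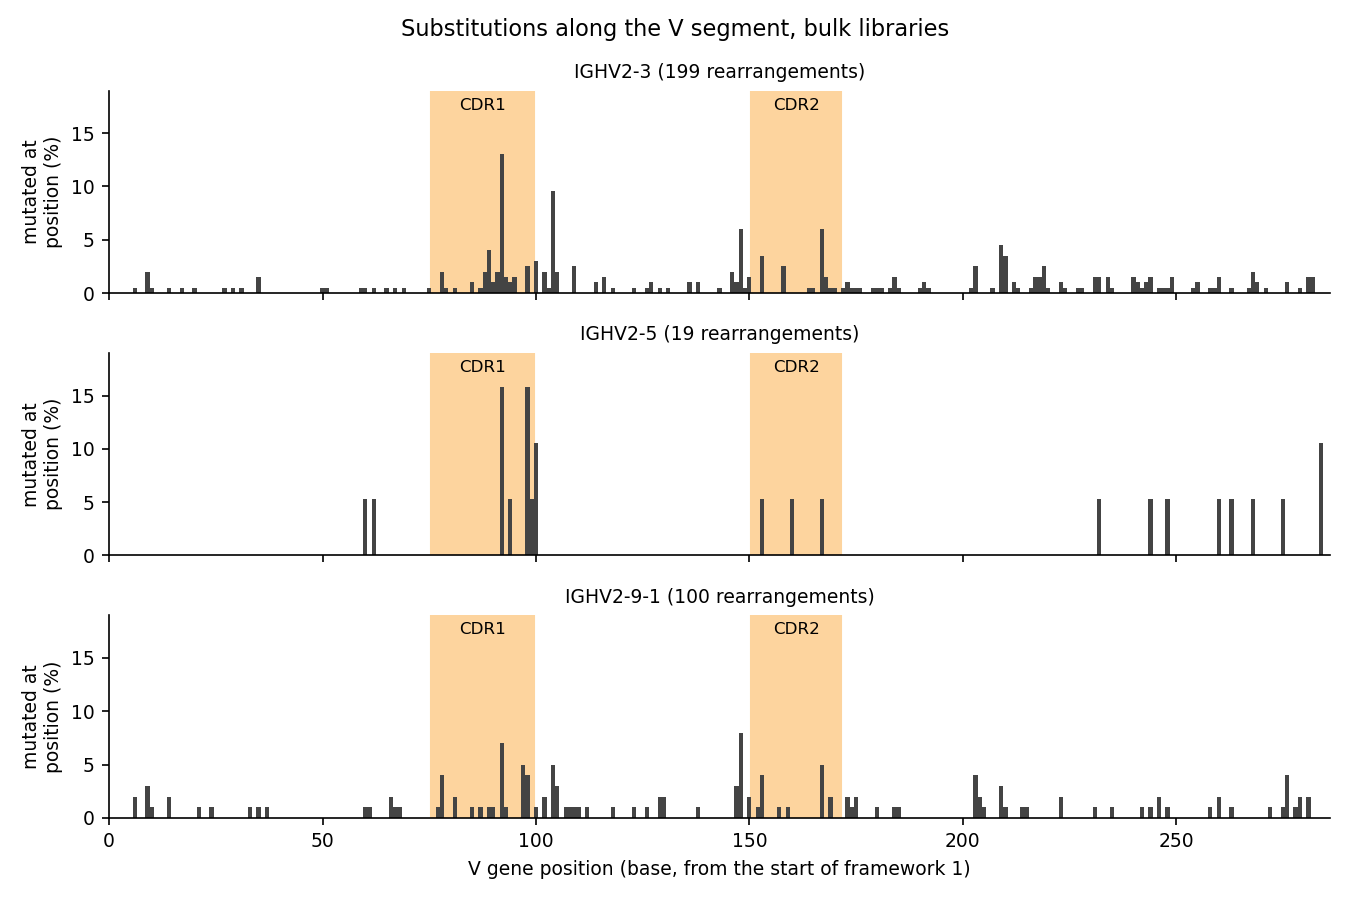
Percent of distinct bulk rearrangements with a substitution at each V position (horizontal axis, base counted from the start of framework 1) for IGHV2-3, IGHV2-5 and IGHV2-9-1, with CDR1 and CDR2 shaded. Position 92 in CDR1 stood at 13.1% in IGHV2-3 and 7.00% in IGHV2-9-1, and at 15.8% in IGHV2-5, where it is 3 of 19 rearrangements.

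Class switching of member rearrangements was most frequent in p libraries of day 13. The switched share was 55.0%, 60.9%, 54.5% and 58.3% in p libraries of day 13, and 25%, 42.9%, 33.3% and 21.4% in n libraries of day 13. At day 7 it was 39.3%, 54.3%, 31.6% and 35.8% in p libraries, and 45.8%, 41.2%, 36.8% and 38.5% in n libraries. At day 13 every p library lay above every n library, and at day 7 the letters overlapped. Other V genes of the same libraries were separated by letter at day 13 too, at 38.3% to 52.0% in p and 31.4% to 32.3% in n libraries. Whether the p minus n difference was larger in the members than in other V genes was not tested. These shares include rearrangements found at both days and are not given without them. Library p 2 of day 7 held 21 of the 23 member rearrangements of p 2 of day 13, and 5 of the 12 of p 4.

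Across both days, p minus n was 13.1 percentage points (two-sided exact permutation p = 0.0273, adjusted p = 0.147), which did not pass. At day 13 alone the means were 57.2% ± 2.98 in p and 30.7% ± 9.54 in n libraries (SD, n = 4, exact permutation p = 0.0286, the smallest possible), and at day 7 the difference was -0.312 points. The day 13 minus day 7 change was 16.9 points in p and -9.92 in n libraries, and the difference between these changes did not pass (26.8 points, exact permutation p = 0.0224, adjusted p = 0.0673). Other V genes of the same libraries were switched in 38.4% ± 7.88 at day 13, against 43.9% ± 15.6 for the members, a difference of 5.55 points (exact permutation, adjusted p = 0.304). Without rearrangements found at both days that difference was -11.2 points (exact permutation, adjusted p = 0.263).

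**Figure D4:**
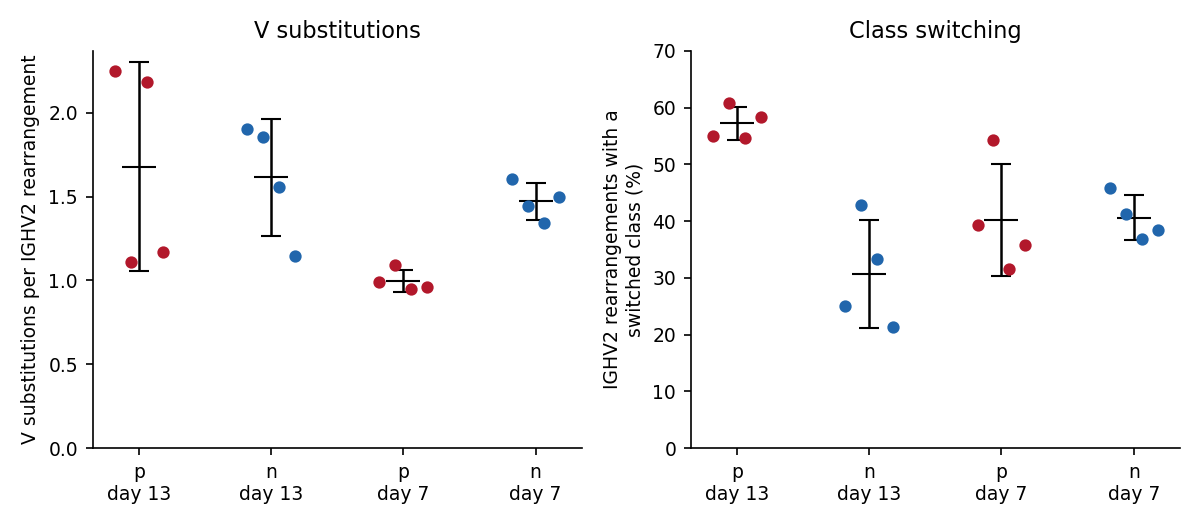
Mean V substitutions per rearrangement (left) and share of rearrangements with a switched class in percent (right) for the IGHV2-3, IGHV2-5 and IGHV2-9-1 rearrangements of each bulk library; bars are means and whiskers 1 SD (n = 4). Switched shares of the p libraries of day 13 lie between 54.5% and 60.9%, above the n libraries of that day, which end at 42.9%.

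The class of bulk sequences was read from the bases after J, with IgG2b and IgG2c merged as IgG2. IGHV2-3 had 61.1% IgM, 35.6% IgG1 and 2.99% IgG2 of 334 sequences, and IGHV2-9-1 had 58.1%, 36.9% and 1.88% of 160. IGHV2-5 had 17 IgM, 8 IgG1 and 4 IgD of 29. None of the members had an IgG3, IgA or IgE sequence. Other V genes had 65.0% IgM, 28.1% IgG1 and 3.84% IgG2 of 7997.

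The heavy-chain calls of OVA 1 matched its gene expression counts. Ighv2-5 transcripts were detected in 169 of 171 cells with an IGHV2-5 heavy chain (98.8%, median 15 UMIs) and in 0.928% of the other 1831 cells, Ighv2-3 in 25 of 25 and 0.354%, and Ighv2-9-1 in 42 of 42 and 0.204%. Germinal center markers were detected in the member cells: Mef2b had a UMI in 219 of 238 (92.02%), against 85.9% of 1764 cells with other V genes. Rgs13 had one in 75.2% and 76.0%, S1pr2 in 67.2% and 65.4%, Fas in 63.4% and 65.9%, Bcl6 in 42.0% and 42.1%, and Gcsam in 39.9% and 37.6%, for member cells and for cells with other V genes. Of the 4 T cell genes, Cd3d, Cd3e and Cd3g were at 0 UMIs in the 238 cells and Trac had a UMI in 3, and any of the 4 had one in 1.26% of member cells and 1.42% of cells with other V genes. At least 1 of the 4 plasma cell genes was detected in 79.4% of member cells and 83.8% of cells with other V genes. Among member cells Jchain was detected in 72.7%, Xbp1 in 49.6%, Prdm1 in 1 cell and Sdc1 in 0. Memory or naive genes were detected in 68.9% and 74.0%, at median depths of 7237 and 7910.5 UMIs, for member cells and for cells with other V genes.

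IGHV2-5 cells of OVA 1 were mostly members of large lineages. They held 48 rearrangements in 15 lineages, and the largest lineage took 67 cells. Clones of at least 2 cells with the same rearrangement held 139 of 171 IGHV2-5 cells (81.3%, 74.6 to 86.8), 14 of 25 IGHV2-3 cells (56.0%, 34.9 to 75.6) and 21 of 42 IGHV2-9-1 cells (50.0%, 34.2 to 65.8), against 53.5% (51.2 to 55.9) of 1777 cells with other V genes. Lineages of at least 2 cells held 97.7% of IGHV2-5, 64.0% of IGHV2-3 and 88.1% of IGHV2-9-1 cells, against 79.5% of cells with other V genes. With a single library no test was made.

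One light chain dominated the IGHV2-5 cells. The kappa gene IGKV8-21 was the light chain of 113 of 167 IGHV2-5 cells with a light chain (67.7%, 60.0 to 74.7), against 43 of 1723 cells with other V genes (2.50%, 1.81 to 3.35). The next partners were IGKV4-91 in 25 cells, IGKV6-15 in 11, IGKV4-50 in 6 and IGKV6-32 in 3. In OVA 1 as a whole IGKV8-21 was found in 156 of 1955 cells (7.98%, 6.82 to 9.27), and IGHV2-5 supplied 72.4% of them. In NP 1 it was found in 1 of 1891 cells and in NP 2 in 0 of 1513, which allows a share of up to 0.198%. With each clone counted once IGKV8-21 stood at 59.6% of IGHV2-5, and with each lineage counted once at 50.0%. Here the cell with the first barcode gives the light chain of a clone or lineage.

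The pairing recurred in lineages with different joints. IGKV8-21 was the main light chain of 8 of the 15 IGHV2-5 lineages, which together held 119 cells. Of these 8, 4 used IGHJ4, 2 used IGHJ2 and 2 used IGHJ3. Their light chains used IGKJ2 in 3 lineages, IGKJ4 in 3 and IGKJ5 in 2, and the light-chain CDR3 was 24 bases long in 7 of 8. A further 13 lineages paired IGKV8-21 with other heavy-chain V genes.

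The IGKV8-21 lineages had short heavy-chain CDR3s, a feature examined after their sequences were seen. The length was 27 bases in 2 lineages, 30 in 5 and 33 in 1, while the 7 IGHV2-5 lineages with other light chains ran from 33 to 48. By cells, 100 of 171 IGHV2-5 cells had a CDR3 of 30 bases (58.5%, 50.7 to 66.0), against 12.9% (11.4 to 14.5) of cells with other V genes. The largest lineage held 67 of these 100 cells, and the intervals treat related cells as independent. With each clone counted once it was 23 of 48 (47.9%, 33.3 to 62.8), against 13.6% (11.5 to 15.8). Codon 4 of the junction, with the cysteine as codon 1, was read in the most frequent junction of each lineage. It was a glutamate codon (GAA or GAG) in 6 of the 8 IGKV8-21 lineages and in 1 of the 7 others. Those 6 lineages held 112 of the 119 cells of the 8. In the bulk libraries 2 of 19 IGHV2-5 rearrangements had a glutamate codon there, and 2 of 19 had a CDR3 of 30 bases.

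The junctions printed at the start show this. The IGHJ4 junction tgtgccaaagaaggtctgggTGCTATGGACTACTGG was the largest clone, with 43 cells, of which 14 were IgM, 2 IgG1, 16 IgG2b and 11 IgG2c. The IGHJ2 junction had 16 cells, of which 4 were IgM, 7 IgG2b, 1 IgG2c and 4 IgG3, and the shorter IGHJ3 junction had 11. All 3 have the codon gaa or gag after tgtgccaaa. The longer IGHJ3 junction had 17 cells, 16 of them IgM, belonged to a lineage with IGKV4-91 and has agc at that place.

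**Figure D5:**
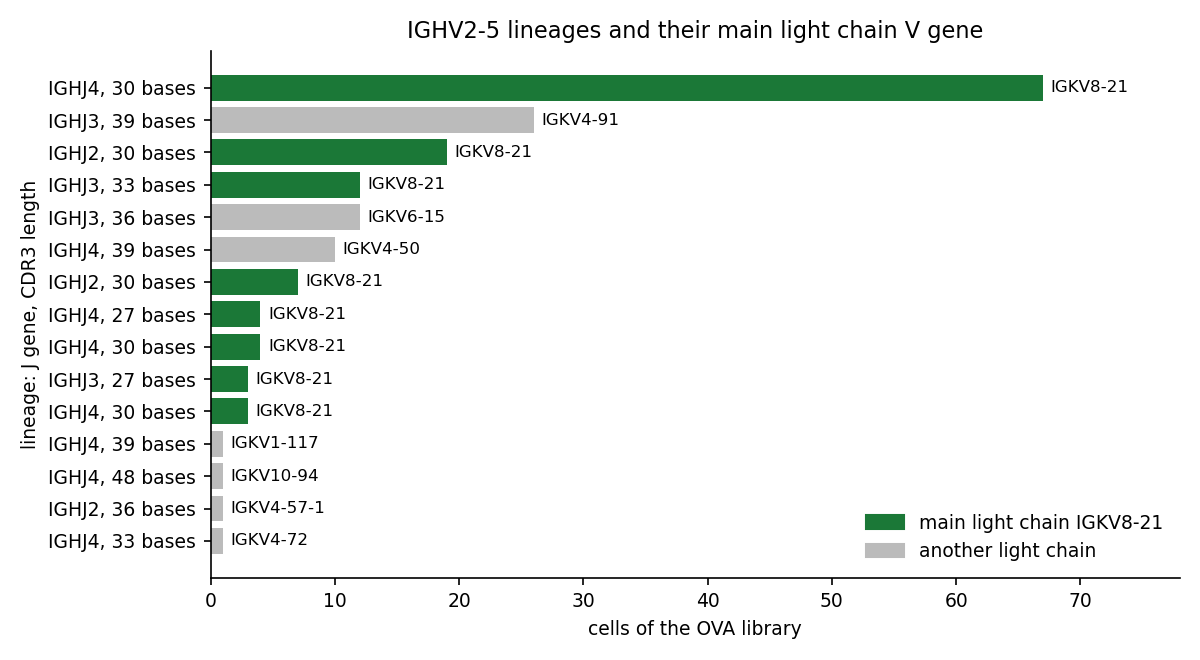
The 15 IGHV2-5 lineages of OVA 1, a bar for each, with the number of cells on the horizontal axis; row labels give the J gene and CDR3 length, text at the bars the most frequent light chain V gene, and green bars have IGKV8-21. The 8 lineages with IGKV8-21 have CDR3s of 27 to 33 bases and the largest holds 67 cells.

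Counted by cells, the classes of IGHV2-5 leaned towards IgG2b, with most of the IgG2b cells in a single lineage. Of 171 cells 85 were IgM (49.7%, 42.0 to 57.4), 54 IgG2b (31.6%, 24.7 to 39.1), 16 IgG2c (9.36%, 5.44 to 14.7), 12 IgG1 (7.02%, 3.68 to 11.9) and 4 IgG3 (2.34%, 0.641 to 5.88). Among cells with other V genes IgM was 51.0% (48.6 to 53.3), IgG2b 18.1% (16.4 to 20), IgG2c 6.92% (5.79 to 8.20), IgG1 21.2% (19.3 to 23.1) and IgG3 2.25% (1.61 to 3.05). The largest lineage alone supplied 35 of the 54 IgG2b cells. The switched share of IGHV2-5 cells was 50.3% (42.6 to 58.0), 41.7% with each clone counted once and 33.3% with each lineage counted once. In such counts the cell with the first barcode gives the class of a clone or lineage. Large clones and lineages mixed classes, so these values depend on which cell is taken.

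IGHV2-9-1 cells were dominated by 1 lineage that was almost entirely IgM. It held 31 of 42 cells in 13 rearrangements, used IGHJ2 with a CDR3 of 42 bases, and carried IGKV3-7 in 28 of its 30 cells with a light chain. The junction printed above was its largest clone, with 16 cells, 13 of them IgM, 2 IgG2b and 1 IgG3. IGKV3-7 was the light chain of 51 of 1723 cells with other V genes (2.96%). IgM made up 35 of 42 IGHV2-9-1 cells (83.3%, 68.6 to 93.0). The next partners were IGKV13-85 in 4 cells, IGKV5-48 and IGKV6-15 in 2 each and IGKV1-135 in 1.

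IGHV2-3 cells were spread over 14 lineages. The largest was a clone of 6 cells, all IgA, with IGHJ2, a CDR3 of 24 bases and IGKV14-111 in the 5 cells with a light chain. IgA was otherwise found in 5 of 1777 cells with other V genes (0.281%, 0.0914 to 0.655) and in 0 IGHV2-5 and IGHV2-9-1 cells. IGKV12-41 was the light chain of 8 of 24 IGHV2-3 cells in 5 lineages (33.3%, 15.6 to 55.3) against 0.638% of cells with other V genes, and IGKV12-98 of 5 cells in 4 lineages (20.8%, 7.13 to 42.2) against 0.116%. IGKV12-44 and IGKV6-32 were found in 2 cells each. Of the 25 cells 14 were IgM, 6 IgA, 3 IgG1 and 2 IgG2c.

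Lambda light chains were found in 0 of 232 member cells of OVA 1 with a light chain, which allows a share of up to 1.29%. Cells with other V genes had 4.12% (3.23 to 5.17). With each clone counted once the members had 0 of 86, which allows up to 3.49%, against 4.50% (3.31 to 5.95). By clones the limit thus lies within the interval of the other V genes. In NP 1 the IGHV2-3 cell was IgG2c with IGHJ3 and IGKV6-23, the IGHV2-5 cell IgD with IGHJ1 and IGKV9-124, and the IGHV2-9-1 cell IgM with IGHJ4 and IGLV1. In NP 2 the 3 IGHV2-9-1 cells were 1 IgM clone with IGHJ3, IGKV10-96 and a CDR3 of 36 bases.

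Bulk and single-cell libraries shared almost no member rearrangement. Of 87 member rearrangements in OVA 1 and 318 in the bulk libraries 1 was common to both (1.15% and 0.314%), an IGHV2-3 with IGHJ2 seen in 1 cell and in 3 bulk libraries. For all V genes together 4 were common, of 1142 in OVA 1 (0.350%) and 4731 in bulk (0.0845%).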

How the data were processed

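Per the submitters' processing notes, single-cell libraries were processed with Cell Ranger on mm10; versions, the bulk aligner and filters are not given in the sources used here. What the authors deposited were UMI counts per gene and cell, UMI and read counts per contig, and for bulk sequences the percent V identity with V and J alignments. No read count stands behind a bulk sequence, so its depth is unknown. Members and gene lists were chosen with earlier results of these data known.

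From these files, V substitutions, junctions (8149 of 8520 sequences in frame) and classes (bases after J, at most 1 mismatch) were derived with Python 3.11.15, pandas 2.3.3 and scipy 1.17.1. Libraries with under 5 member rearrangements would have been left out; none were. Tests were two-sided exact permutation tests over libraries with Benjamini-Hochberg adjustment, and were tested on simulated data. Named clones, substitutions, light chains and likenesses follow fixed counts (the 3 or 5 most frequent per gene); IGHV2-2 and the IGKV8-21 junctions printed beyond these were chosen after their values were seen. Cells with more than 1 heavy chain were assigned the chain with most UMIs (49 cells in OVA 1), and no doublet caller was run.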

Additional observations from a re-analysis of the deposited data

Results flagged for a closer look

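Among the 4 p libraries of day 7, the IGHJ1 share of member rearrangements stood apart in p 1, at 39.3% against 45.3% in the nearest library. Its gap to the nearest value was 0.933 of the range of the group, above Dixon's 95% critical value of 0.83 for 4 samples. Such a gap arises by chance in about 1 of 20 groups, and 40 groups were examined. The share in p 1 was still above the 14.2% of other V genes in that library.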

How the results depend on the processing

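Of 434 alternative values, 354 kept their direction and their side of the threshold, or lay within their error. The settings without rearrangements found at both days, without both p 2 libraries, without positions after the V cysteine codon, and with each lineage counted once were chosen after seeing the data. All V calls named 1 gene, so that alternative gave the same values by construction. The called J differences kept their direction in every setting and lost the call in several. With each sequence counted once, IGHJ3 at day 13 differed by -20.04 points, and IGHJ1 and IGHJ2 at day 7 by 20.3 and -14.4. With a minimum of 10 rearrangements per library they differed by -15.9, 25.2 and -17.0, without rearrangements found at both days by -15.6, 23.4 and -17.3, and without both p 2 libraries by -18.3, 24.3 and -17.2. With the replicate block, in which the p and n libraries of a number count as 1 value, they were -17.8, 25.2 and -17.0 with an adjusted p of 0.219 each, where 4 values per day cannot pass. Same-numbered libraries correlated over 47 V genes with r from -0.04 to 0.13 at day 13 and from -0.09 to 0.49 at day 7, so not every pair was over 0.1. Same-numbered libraries of a day shared a median of 28 rearrangements, against 2 for other pairs, so they are linked, by what the labels do not say. The block changed no other call. Leaving out single libraries gave -19.6 to -16.3 for IGHJ3 at day 13, and 22.7 to 28.0 and -17.3 to -16.3 for IGHJ1 and IGHJ2 at day 7, where fewer libraries raise the smallest p.

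The day 13 minus day 7 difference in substitutions passed with each sequence counted once (0.523), with all IGHV2 genes (0.522) and in p alone (0.679), was 0.120 without IGHV2-3 and 0.579 without rearrangements found at both days, and ran from 0.315 to 0.505 when single libraries were left out. The switched share, p minus n, passed with all IGHV2 genes (16.1). The day difference in switched share passed in p alone (16.9). This pass and that of substitutions in p alone rest on the smallest p-value that 4 against 4 libraries allow (exact permutation p = 0.0286). They were adjusted over fewer tests than the main values. Switched shares in p were separated by day only narrowly, at 54.5% in p 3 of day 13 against 54.3% in p 2 of day 7. So were substitutions, at 1.11 in p 2 of day 13 against 1.09 in p 2 of day 7. Library p 2 of day 13 shared 21 of its 23 member rearrangements with p 2 of day 7, yet they counted as independent. The day difference in switched share reversed in n alone (-9.92), with a minimum of 10 (-0.222), without IGHV2-3 (-11.4) and without rearrangements found at both days (-5.09). Without rearrangements found at both days the switched share against other V genes also reversed, to -11.2 at day 13 and -0.410 at day 7. Uncalled values near 0 also reversed. CDR3 length, p minus n, was -0.853 with a minimum of 10, -0.781 without IGHV2-3, -0.265 without IGHV2-9-1, -0.420 without rearrangements found at both days, -0.328 at day 7 alone and -0.585 to 0.578 with single libraries left out. CDR3 length by day was -1.09 without IGHV2-9-1, -0.875 without rearrangements found at both days, -0.388 in n alone and -0.278 to 0.885 with single libraries left out. Substitutions, p minus n, were 0.0629 at day 13 alone, the switched share, p minus n, -0.312 at day 7 alone, and IGHJ4 at day 13 -1.76 with a minimum of 10. Substitutions against other V genes at day 7 ran from -0.00468 to 0.0415 with single libraries left out. Causes were not tested beyond the number of libraries. Member rearrangements numbered 7 to 79 per library, which limits every share.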

Other observations

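IGHV2-2, a family gene outside the group, had 224 bulk sequences, and 134 of them lay in p 2 of day 13, where they made up 27.6% of that library in 4 rearrangements. Position 92 was mutated in 13.1% of distinct rearrangements of IGHV2-3, 15.8% of IGHV2-5 and 7.00% of IGHV2-9-1, against 20 of 66 in IGHV2-2 (30.3%). Position 92 lies in the same CDR1 hotspot of these genes.

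Of the 19 bulk rearrangements of IGHV2-5, 2 had lost the cysteine codon at the start of the junction by G284A. They lay in n 1 and n 3 of day 13 and came in 2 and 3 sequences. They were noticed after the values were seen.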
